A study of Mus musculus with 6 samples.

Results

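The genes described are 34 mouse genes of the motile cilium, taken from a list of axoneme and ciliogenesis genes among 21887 protein-coding genes of the RefSeq annotation of the same mouse assembly (mm10, GRCm38.p6). All 34 were found, on autosomes, with spans from 3568 bp (Tekt2) to 343286 bp (Hydin). A peak belonged to a gene when it overlapped the gene's span plus 1000 bp on each side by at least 1 bp. Methylated DNA was captured from whole lung with a methyl-CpG-binding protein and sequenced (MBD-seq), so peaks mark stretches rich in methylated fragments. The 6 libraries came from mice of 12 to 16 months, 3 wild type and 3 transgenic, labelled Tg(SPC-DNMTΔ3B/DG). The transgene is ΔDNMT3B4-del, a deletion variant of the de novo DNA methyltransferase DNMT3B. The SPC promoter that drives it is that of surfactant protein C, a gene of alveolar type 2 cells. The labels name 4 founder lines with germ-line transmission and do not say which line gave which animal.

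A motile cilium is built around the axoneme, a ring of microtubule doublets with a central pair. Outer and inner dynein arms, motors made of very large heavy chains, slide the doublets, while radial spokes, nexin links and the central pair shape the beat. In the airway the axonemal genes are used by multiciliated cells, where they are switched on by Mcidas, Foxj1 and RFX factors. In a whole lung these cells are a minority. Capture in bulk DNA does not say which cells carried the methylation, and a change in cell mixture and a change within cells cannot be told apart. No file here measures RNA, so markers could not check which cell types were present.

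RefSeq promoters (GRCm38.p6, 250 bases before to 50 after a start) were in the table for 29 of the 34 genes, 32 promoters in all. They are shown for the 5 members with a peak on the promoter, or within 1000 bp of the start edge of the gene, in at least 1 library, and for Mcidas, a regulator whose promoter had none. Foxj1 had no entry. The printed Dnah5 promoter lies 48912 bp inside the gene's span, that of Tekt4 17041 bp and that of Dnaic2 6078 bp. Capitals mark each CG, the base pair step that can be methylated and that the capture protein binds.
Dnah5, chr15:28203516-28203815, plus strand: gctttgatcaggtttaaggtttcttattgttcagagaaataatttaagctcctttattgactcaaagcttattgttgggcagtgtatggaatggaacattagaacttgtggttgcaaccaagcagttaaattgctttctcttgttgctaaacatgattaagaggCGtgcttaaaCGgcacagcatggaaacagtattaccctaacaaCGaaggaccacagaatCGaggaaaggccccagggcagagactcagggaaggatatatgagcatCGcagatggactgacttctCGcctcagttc
Dnah8, chr17:30626686-30626985, plus strand: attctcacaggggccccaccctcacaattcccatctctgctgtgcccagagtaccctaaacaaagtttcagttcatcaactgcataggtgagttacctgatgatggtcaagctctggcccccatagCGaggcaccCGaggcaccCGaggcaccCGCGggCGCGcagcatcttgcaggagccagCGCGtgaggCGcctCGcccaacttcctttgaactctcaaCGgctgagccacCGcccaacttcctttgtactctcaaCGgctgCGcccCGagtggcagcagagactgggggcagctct
Tekt4, chr17:25471340-25471639, plus strand: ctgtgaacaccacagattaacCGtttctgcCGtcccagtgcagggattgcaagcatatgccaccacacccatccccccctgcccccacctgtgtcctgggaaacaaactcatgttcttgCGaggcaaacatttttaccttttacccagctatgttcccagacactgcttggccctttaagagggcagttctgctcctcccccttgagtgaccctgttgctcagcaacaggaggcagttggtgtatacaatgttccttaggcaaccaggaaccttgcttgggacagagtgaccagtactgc
Tekt2, chr4:126325639-126325938, minus strand: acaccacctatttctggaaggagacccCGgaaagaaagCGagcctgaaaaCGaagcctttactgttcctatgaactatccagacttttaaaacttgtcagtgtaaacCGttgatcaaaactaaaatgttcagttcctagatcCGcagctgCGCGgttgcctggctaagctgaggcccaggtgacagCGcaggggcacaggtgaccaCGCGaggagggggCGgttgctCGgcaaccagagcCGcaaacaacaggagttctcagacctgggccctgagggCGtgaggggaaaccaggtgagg
Dnaic2, chr11:114727169-114727468, plus strand: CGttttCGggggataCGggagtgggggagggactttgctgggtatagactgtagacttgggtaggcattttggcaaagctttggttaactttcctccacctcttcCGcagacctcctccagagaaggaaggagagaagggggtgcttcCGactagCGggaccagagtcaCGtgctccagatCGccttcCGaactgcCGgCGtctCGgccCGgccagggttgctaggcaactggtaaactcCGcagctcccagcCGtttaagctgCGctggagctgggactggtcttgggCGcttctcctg
Mcidas, chr13:112993618-112993917, plus strand: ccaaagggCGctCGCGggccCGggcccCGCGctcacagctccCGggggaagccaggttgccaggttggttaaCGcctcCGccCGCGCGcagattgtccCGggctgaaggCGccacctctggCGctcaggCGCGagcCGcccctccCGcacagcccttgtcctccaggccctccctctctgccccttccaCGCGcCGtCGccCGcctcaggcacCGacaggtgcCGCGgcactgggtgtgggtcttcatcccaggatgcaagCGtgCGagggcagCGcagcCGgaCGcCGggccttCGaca
The promoters of Dnah5, Tekt4 and Dnah8 were the only 3 of 32 (9.38%) that a peak overlapped in any library. Among 21263 promoters of protein-coding genes 6.78% were overlapped in at least 1 library. The Dnah5 promoter, with 6 CG, had a peak in transgenic replicate 1 and wild-type replicate 1. That of Tekt4, with 3 CG, had one in transgenic replicate 1, and that of Dnah8, with 16 CG, in wild-type replicate 2. No group had a peak on any of these promoters in more than 1 library. Close by, peaks recurred. Within 1000 bp of the listed start, Tekt4 had a peak in transgenic replicates 1, 2 and 3 and wild-type replicate 2. Dnah5 had one there in replicates 1 and 2 of both groups, and Dnah8 in wild-type replicate 2 alone. The median member promoter held 12 CG and the median protein-coding promoter 13. The 6 member promoters with 20 or more CG, those of Dnaic1, Tekt1, Ccdc40, Mcidas, Rfx2 and Rfx3, were free of peaks in all 6 libraries. Among the 7641 protein-coding promoters with 20 or more CG, 0.720% to 3.01% had a peak, depending on the library. For those with 5 to 9 CG the share ran from 0.886% to 10.03%. RFX factors are regulators of ciliary genes and bind DNA motifs that contain GTTGCC. These 6 letters, searched on both strands, stood in 13 of the 32 member promoters (40.6%) and in 12.6% of protein-coding promoters. Over all 32851 promoters in the table the share was 12.5%. A CG can share the final C of the motif. Of the promoters printed, those of Tekt4, Tekt2, Dnaic2 and Mcidas held it. Counted by gene, 12 of 29 members (41.4%) held it, among them Dnah10, Hydin, Drc1, Tekt1 and Rfx2. So did 37 of 74 other cilia genes in the table. The share of all protein-coding genes counted by gene is not given here.

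The libraries differed in list length. The lists held 120349, 116352 and 78952 peaks in transgenic replicates 1, 2 and 3 and 60131, 111211 and 30640 in wild-type replicates 1, 2 and 3. Read depth is unknown, so a gene without a peak is one where none was called at that list's depth. Wild-type replicate 3 had the shortest list and wild-type replicate 2 a longer list than transgenic replicate 3.

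Nearly all cilia genes were captured somewhere in the gene. A peak was found in 31 members in each transgenic library and in 30, 33 and 21 members in wild-type replicates 1, 2 and 3. In all 6 lists 21 members had a peak. The share of other protein-coding genes with a peak was 67.5%, 67.5% and 58.4% in the transgenic and 52.2%, 66.7% and 31.8% in the wild-type lists. Members were long, with a median span of 60315 bp against 17140 bp. Rsph4a, a radial spoke head gene (chromosome 10, 33905111 to 33916021), had no peak in any list. The difference between groups was 3.00 members (31.0 ± 0 against 28.0 ± 6.24, SD, n = 3 each; two-sided exact permutation p = 0.70), and -0.50 without wild-type replicate 3. With 3 animals per group this exact test cannot go below p = 0.10. The labels call the libraries biological replicates.

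Per base, the members were more captured than other genes in all 6 libraries. The share of their bp under a peak was 4.65%, 3.68% and 2.32% in transgenic replicates 1, 2 and 3 and 1.43%, 4.11% and 0.362% in wild-type replicates 1, 2 and 3. Other protein-coding genes had 3.06%, 2.56% and 1.58%, and 1.16%, 2.59% and 0.278%. The log2 ratio of members to other genes was 0.50 ± 0.14 (SD, n = 6) and positive in 6 of 6 libraries. An exact two-sided sign-flip permutation test over the libraries gave p = 0.031, the smallest it can give, and an adjusted p of 0.219 over 7 tests, so the difference did not pass after adjustment. This test asks only whether animals show the same direction at these genes. With the 30640 best-scoring peaks of every list, the length of the shortest, the log2 ratio was 0.19 (exact p = 0.0938). The 12 dynein heavy chains and Hydin made up 76.1% of the members' bp. Without them the log2 ratio was 0.44 (exact p = 0.0625) and turned negative in wild-type replicate 3 (-0.20). CG in the gene spans was not counted, so these ratios compare capture and not methylation level.

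The groups did not differ in this measure beyond the spread between animals. Members were covered to 3.55 ± 1.17% in transgenic and 1.97 ± 1.93% in wild-type lungs (SD, n = 3 each; exact permutation p = 0.30). The ranges, 2.32% to 4.65% and 0.362% to 4.11%, overlapped. The difference of 1.58 percentage points was 2.65 when wild-type replicate 2 was left out and 0.777 when replicate 3 of that group was. Relative to other genes, the log2 ratio was 0.56 ± 0.04 and 0.45 ± 0.19 (SD, n = 3 each; exact permutation p = 0.40). The difference of 0.11 became -0.06 with lists of equal length. For 31 of 34 members the mean share was higher in the transgenic group. The 2 with a lower mean were Foxj1 and Mcidas, each captured in wild-type replicate 2 alone. The matching share over all protein-coding genes is not given here, so the count of 31 shows nothing particular to the members. The median difference over the members was 1.10 percentage points, over all protein-coding genes 0.755. No member had every transgenic library above every wild-type library or the reverse. Among 16125 protein-coding genes with a peak in any list 6.78% had the first pattern and 0.0186% the second. With wild-type replicate 2 left out, 23 of 31 members with a peak (74.2%) had the first pattern, against 56.9% of genes. With transgenic replicate 3 left out, 10 of 33 (30.3%) had it, against 34.7% of genes. With lists of equal length 2 members had the first pattern and 1 the second, against 7.66% and 0.725% of genes.

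**Figure D1:**
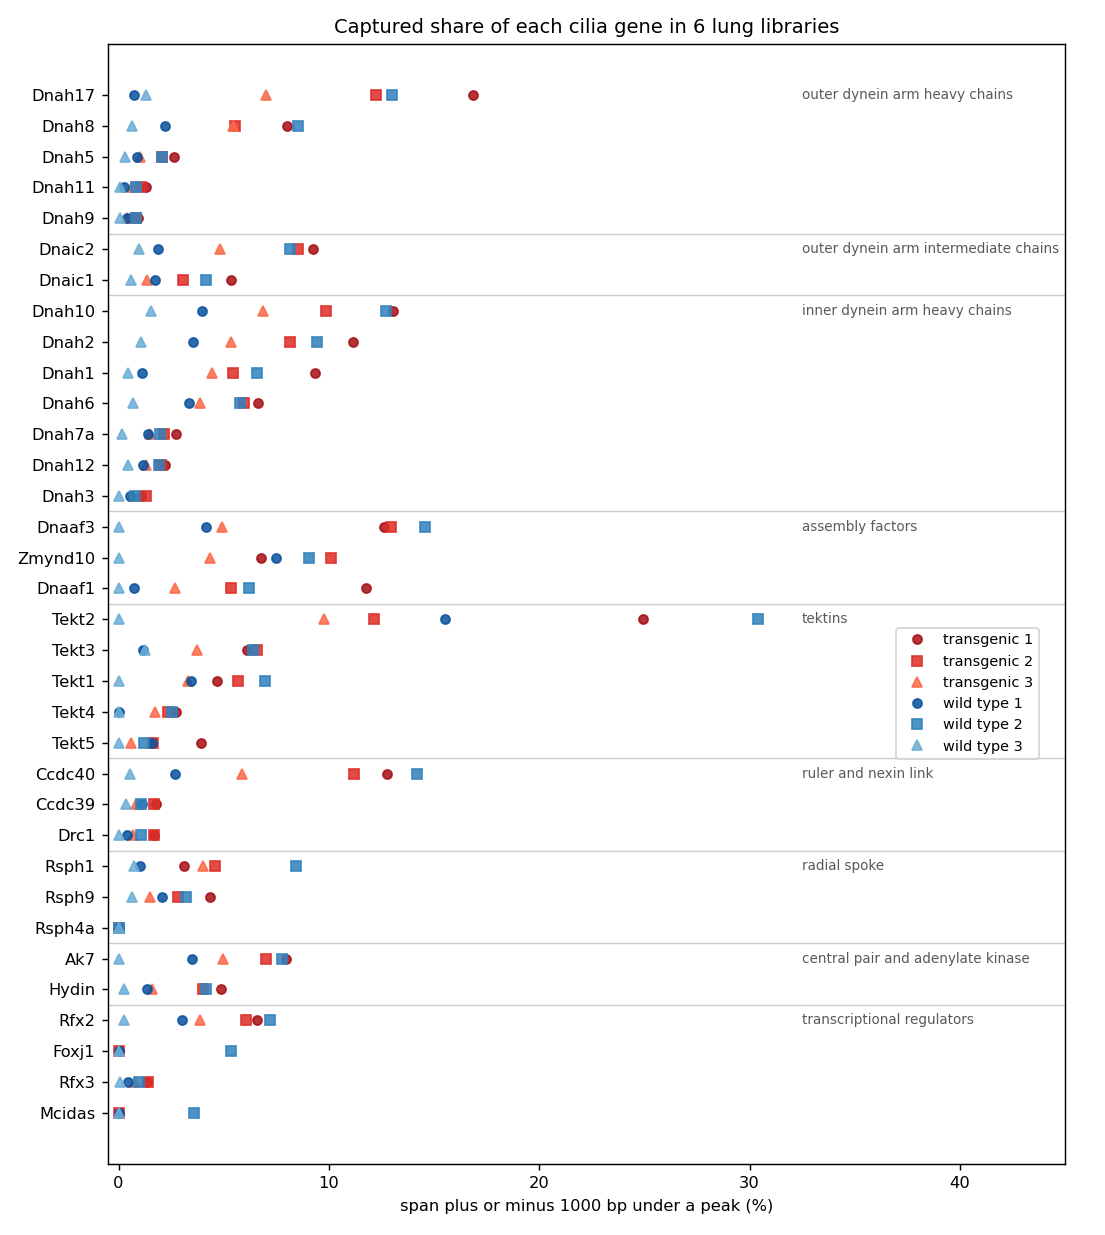
Percentage of each gene's span plus or minus 1000 bp under a peak (x axis) for the 34 cilia genes (y axis, grouped by role); each point is 1 library, red for transgenic and blue for wild type. For Dnah10, Dnah2 and Dnah6 the point of wild-type replicate 2 lies among those of the transgenic libraries, and Tekt2 reaches the highest value, 30.4%.

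The order of the genes was shared between animals. Across the 34 members, Spearman's rho of the covered share between 2 libraries was 0.694 to 0.950 for every pair that left out wild-type replicate 3 and 0.237 to 0.458 for pairs with it, a description over the same genes, with the same length and base composition in each library. The 6 genes with the highest mean share were Tekt2, Dnah17, Dnaaf3, Dnah10, Ccdc40 and Dnah2.

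The outer dynein arm heavy chains ranged widely in capture although they are paralogs. The capture protein binds methylated CG, and CG in gene bodies was not counted here. A difference in capture between genes is therefore not shown to be a difference in methylation level. Dnah17, the sperm-type chain (chromosome 11, 118021723 to 118130719), was covered to 16.9%, 12.2% and 7.02% in transgenic replicates 1, 2 and 3 and 0.721%, 13.0% and 1.29% in wild-type replicates 1, 2 and 3. It stood at 4.43 to 5.50 times the level of other genes in 5 libraries and at 0.620 times in wild-type replicate 1. That library had 2 peaks in the gene, fewer than the 5 of wild-type replicate 3, whose list is the shorter. Dnah9, the chain of the distal part of airway cilia, had 0.935%, 0.808% and 0.423% in the transgenic and 0.423%, 0.843% and 0.0510% in the wild-type lists, in the same order. Dnah11, its counterpart in the proximal part and a primary ciliary dyskinesia gene, had 1.33%, 1.05% and 0.642% in the transgenic and 0.241%, 0.823% and 0.0721% in the wild-type lists. Both lay below other genes in every library, at 0.184 to 0.364 and 0.207 to 0.433 times their level. Dnah5, the partner chain mutated in primary ciliary dyskinesia, lay between 0.310% and 2.62%. Dnah8, its testis-enriched paralog, lay between 0.657% and 8.56%. In each of the 6 libraries Dnah8 was above Dnah5, and Dnah5 above Dnah9. Of the outer arm intermediate chain genes, Dnaic2 had 0.955% to 9.26% and Dnaic1 0.615% to 5.34%.

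**Figure D2:**
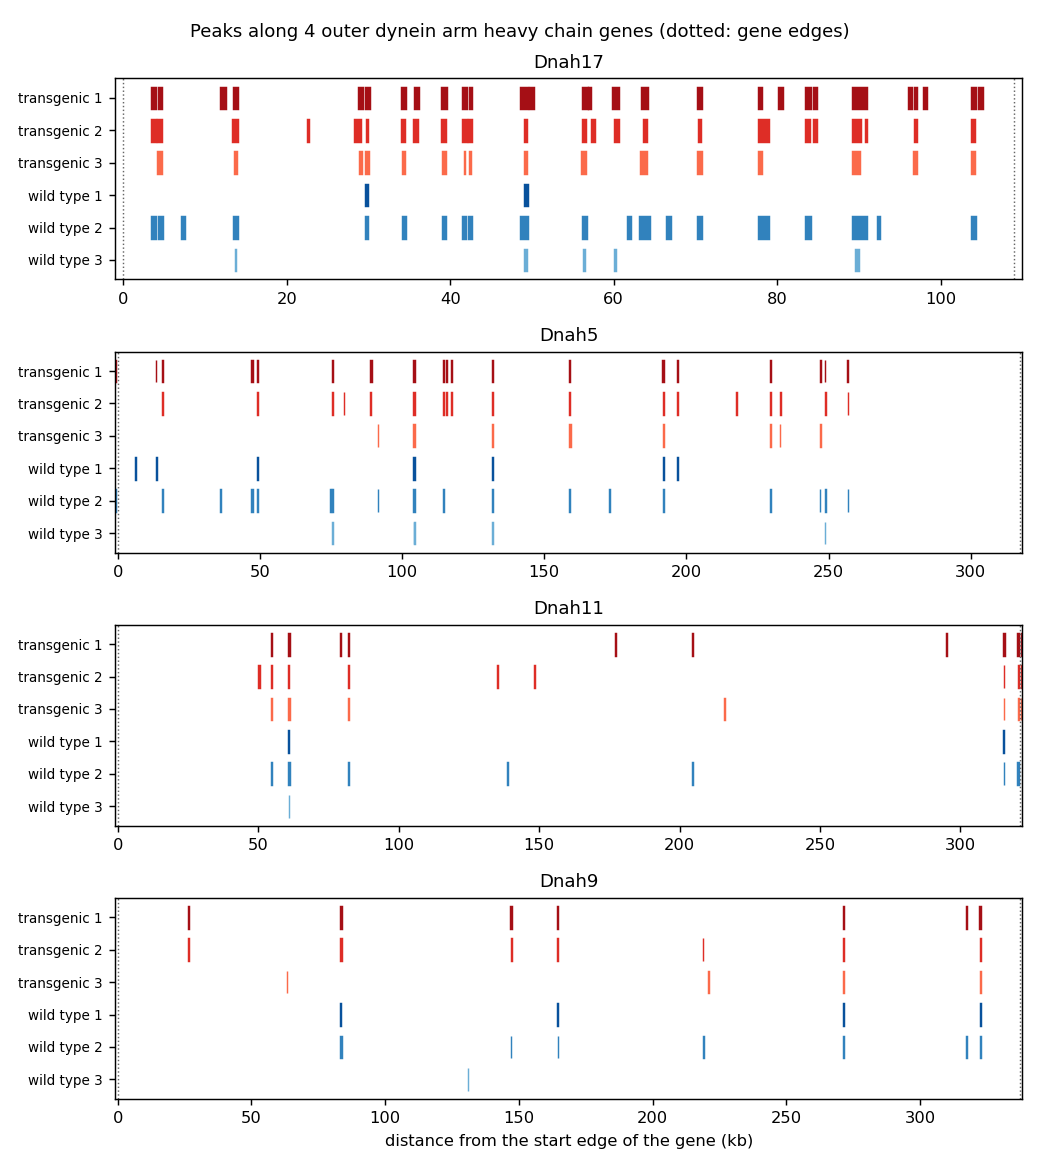
Peaks (bars) along 4 outer dynein arm heavy chain genes in each library (rows), against distance in kb from the gene's start edge; narrow peaks are drawn with a minimum line width. Dnah17 carries 16 to 28 peaks in the transgenic lists and 2 in wild-type replicate 1, while Dnah9 carries 1 to 7 in a span of 337258 bp.

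Among the inner arm heavy chains, Dnah10 (chromosome 5, 124725085 to 124834308) was covered to 13.1%, 9.86% and 6.89% in transgenic replicates 1, 2 and 3 and 3.95%, 12.7% and 1.54% in wild-type replicates 1, 2 and 3. Dnah2 (chromosome 11, 69420807 to 69549108) had 11.1%, 8.16% and 5.37% in the transgenic and 3.54%, 9.45% and 1.05% in the wild-type lists. In both genes the groups overlapped through wild-type replicate 2. Dnah1 reached 9.35%. Dnah6 had 6.63%, 5.95% and 3.88% in the transgenic and 3.36%, 5.80% and 0.681% in the wild-type lists, again with wild-type replicate 2 inside the transgenic range. Dnah12 had 2.23%, 2.01% and 1.31% in the transgenic and 1.18%, 1.94% and 0.459% in the wild-type lists. Dnah3 had 1.05%, 1.30% and 0.693% in the transgenic and 0.554%, 0.779% and 0% in the wild-type lists, and Dnah7a stayed at or under 2.73%. Dnah7b and Dnah7c are close paralogs of Dnah7a, and reads could be shared between them.

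Tektins are filament proteins inside the doublet wall. Tekt2 (chromosome 4, 126322121 to 126325688), the shortest member, was the most covered, at 24.9%, 12.1% and 9.75% in transgenic replicates 1, 2 and 3 and 15.5%, 30.4% and 0% in wild-type replicates 1, 2 and 3. The highest and the lowest value were both wild type. Tekt1 had 4.67%, 5.67% and 3.28% in the transgenic and 3.45%, 6.96% and 0% in the wild-type lists. Tekt3 reached 6.59%, Tekt5 3.91% and Tekt4 2.74%. Dnaaf1, Dnaaf3 and Zmynd10 encode factors that preassemble dyneins in the cytoplasm. Dnaaf3 (chromosome 7, 4522933 to 4532488) had 12.6%, 13.0% and 4.92% in the transgenic and 4.18%, 14.6% and 0% in the wild-type lists. Dnaaf1 reached 11.8% and Zmynd10 10.1%, and neither had a peak in wild-type replicate 3.

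Ccdc40 and Ccdc39 encode a pair of coiled-coil proteins that act together as a ruler for arm spacing, and they differed in capture. Ccdc40 (chromosome 11, 119228490 to 119265248) had 12.8%, 11.2% and 5.89% in the transgenic and 2.70%, 14.2% and 0.526% in the wild-type lists, while Ccdc39 had 0.337% to 1.77%. Ccdc40 was above Ccdc39 in 6 of 6 libraries. The nexin link gene Drc1 had 1.70%, 1.70% and 0.681% in the transgenic and 0.419%, 1.08% and 0% in the wild-type lists. The radial spoke genes Rsph1 and Rsph9 reached 8.42% and 4.33%. Hydin, a central pair gene with 18 to 38 peaks in the transgenic and 4 to 39 in the wild-type lists, was covered to 4.89%, 4.03% and 1.61% in the transgenic and 1.36%, 4.18% and 0.245% in the wild-type lists. Ak7, an adenylate kinase gene, had 7.97%, 6.99% and 4.95% in the transgenic and 3.49%, 7.78% and 0% in the wild-type lists.

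Of the transcriptional regulators, Foxj1 and Mcidas were each captured in 1 list and Rfx3 at a low share. Foxj1, the master regulator of motile ciliogenesis (chromosome 11, 116330704 to 116335499), had 1 peak, in wild-type replicate 2, and 0 in each of the other 5 lists. It lay inside the gene at 116332215 to 116332578 and its score of 53.4 was near the lowest listed, 50 (scores are the authors' own). Mcidas, a coactivator that starts multiciliated differentiation (chromosome 13, 112993581 to 113000394), also had 1 peak, in the same library, at 112997251 to 112997567 with a score of 54.4. Rfx3, an RFX factor with a span of 252949 bp, was covered to 1.36%, 1.39% and 0.760% in the transgenic and 0.473%, 0.954% and 0.0533% in the wild-type lists. Rfx2 (chromosome 17, 56775897 to 56831008) had 6.58%, 6.06% and 3.86% in the transgenic and 3.00%, 7.22% and 0.280% in the wild-type lists. Its peaks lay in the body and at the far end, not at the start.

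Where the strand was known, the far ends of cilia genes had a larger share of bp under a peak than the starts in 5 of 6 libraries, a contrast that did not pass its test. Strand came from the promoter table for 29 members, and each end was taken as the edge of the gene span plus or minus 1000 bp. The share of bp under a peak at the starts was 2.09%, 0.521% and 0.247% in transgenic replicates 1, 2 and 3 and 0.659%, 1.81% and 0% in wild-type replicates 1, 2 and 3. At the far ends it was 10.4%, 9.23% and 4.73%, and 2.41%, 9.60% and 0%. Wild-type replicate 3 had no peak at either end, so its difference was 0. The start minus far end difference was -5.17 ± 3.68 percentage points (SD, n = 6; two-sided exact sign-flip permutation p = 0.0625). With 1 library at 0 this is the smallest p that test can give, so it cannot decide the question. In other protein-coding genes starts were also below far ends, by less. The members' difference minus theirs was -3.82 ± 2.94 points (SD, n = 6), negative in 5 of 6 libraries, exact p = 0.0625. Both contrasts were added after the data were seen. With windows of 2000 bp the exact p was 0.031 for both. With lists of equal length the contrasts shrank to -0.620 (exact p = 0.125) and -0.278 (exact p = 0.3125). With peaks of at least the pooled median score they were -2.72 and -2.05 (exact p = 0.125 each). For 7 members the start in the promoter table lay over 1000 bp inside the span. With those listed starts the first contrast was -4.41 (exact p = 0.0625, again the smallest possible, with wild-type replicate 3 at 0).

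A far-end peak was found in 12, 13 and 9 of the 29 members in the transgenic and in 5, 11 and 0 in the wild-type lists. The share of 15299 other protein-coding genes with one was 21.5%, 20.0%, 13.4%, 9.43%, 19.4% and 3.804% in the same order. In at least 1 library a far-end peak was found in 15 members (51.7%), against 27.8% of other genes, and 14 members had none. A start peak in at least 1 library was found in 4 members (13.8%), against 14.3% of other genes, so the starts of the members were near the background. Those 4 were Tekt2, in 5 lists, Dnah5, in 2, and Dnah8 and Dnaic2, in 1 each. These starts are span edges. Within 1000 bp of the listed starts, peaks lay at Tekt2, Dnah5, Tekt4 and Dnah8, and at Dnaic2 in no library. The far ends of Dnah10, Tekt1, Rfx2 and Dnaaf3 were captured in the 5 lists other than wild-type replicate 3, those of Dnah11, Tekt2 and Dnaic1 in 4. Of the 15 far ends, 10 lay within 1000 bp of another gene, among them Ccdc92 beside Dnah10, Cdca7l beside Dnah11, Tnni3 beside Dnaaf3 and Rassf1 beside Zmynd10. The distance was taken from the gene edge, so a peak there can belong to both neighbours by position. At the start of Tekt2 no peak lay on the printed promoter. The nearest began 540, 662 and 691 bp inside the gene in transgenic replicates 1, 2 and 3 and 618 and 714 bp inside in wild-type replicates 1 and 2.

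**Figure D3:**
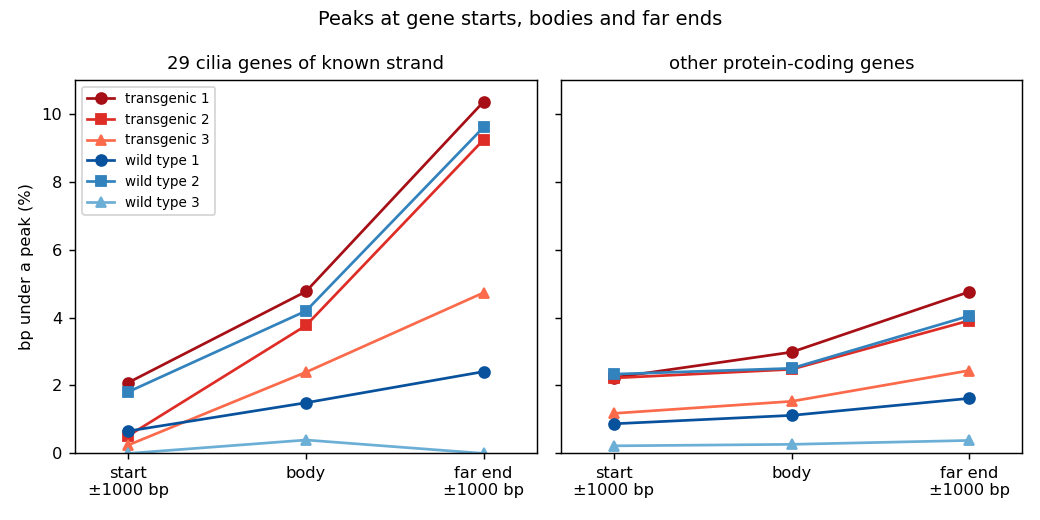
Percentage of bp under a peak at gene starts, bodies and far ends (x axis) for the 29 cilia genes of known strand (left) and other protein-coding genes (right); each line is 1 library. In 5 libraries the members rise from at most 2.09% at starts to between 2.41% and 10.4% at far ends, and wild-type replicate 3 stays at 0 at both.

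Both ends together gave no stable contrast with the body. The ends of all 34 members were covered to 5.98%, 4.73% and 2.12% in the transgenic and 1.31%, 5.47% and 0% in the wild-type replicates 1, 2 and 3, and the bodies to 4.60%, 3.64% and 2.32%, and 1.44%, 4.06% and 0.375%. Ends were higher in 3 libraries and lower in 3, with a mean difference of 0.530 ± 0.850 points (SD, n = 6; exact sign-flip permutation p = 0.25). With windows of 500 bp the difference was -0.703 (exact p = 0.031), and with lists of equal length it was -0.457 (exact p = 0.031). A peak at either end was found in 15, 14 and 9 members in the transgenic and 6, 13 and 0 in the wild-type replicates 1, 2 and 3. As a share this was 44.1%, 41.2% and 26.5%, and 17.6%, 38.2% and 0%, against 27.4%, 26.6% and 17.8%, and 13.2%, 26.1% and 5.57% of other protein-coding genes. The counts averaged 12.7 ± 3.21 against 6.33 ± 6.51 (SD, n = 3 each; exact permutation p = 0.20), and no member had one in all 6. The difference of 6.33 members was 3.17 without wild-type replicate 3, 9.67 without wild-type replicate 2 and 0.333 with lists of equal length.

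Each span was also divided into 10 equal parts, numbered from the start to the far end. Other protein-coding genes rose from part 1 to part 10 in all 6 libraries, for example from 1.87% to 4.85% in transgenic replicate 1. The members rose from 3.52% to 5.35% in that library, with a high of 6.50% in part 8. In wild-type replicates 1 and 3 part 10 of the members, at 1.37% and 0.107%, was below part 1, at 1.62% and 0.489%. Part 8 held the highest value in all 3 transgenic libraries and in wild-type replicate 2, and part 5 in the other two. These shares weight genes by length. As a mean over genes the members were highest in part 9 in transgenic replicate 1 (13.8%) and wild-type replicate 2 (14.2%), and in part 10 in transgenic replicates 2 (9.60%) and 3 (8.41%). They were highest in part 4 in wild-type replicate 1 (5.55%), where part 10 (3.14%) was above part 1 (1.16%), and in part 5 in wild-type replicate 3 (0.808%). By the mean over genes, part 10 of the members was above part 1 in all libraries but wild-type replicate 3 (0.0697% against 0.277%). Other genes by that mean were highest in part 9 in every library, for example at 7.15% in transgenic replicate 1. The difference in shape between members and other genes was not tested.

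**Figure D4:**
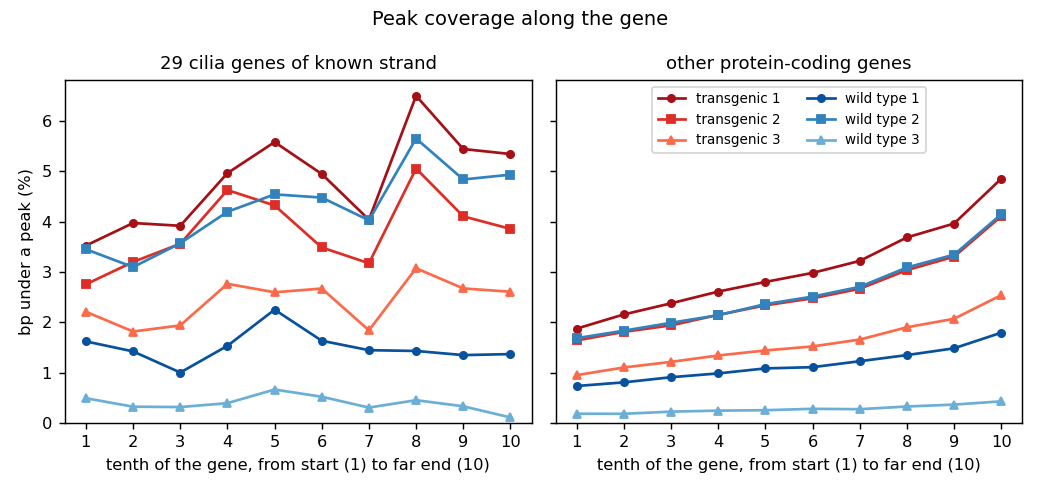
Percentage of bp under a peak in each of 10 equal parts of the gene from start to far end (x axis), for the 29 cilia genes of known strand (left) and other protein-coding genes (right); each line is 1 library. Other genes end higher than they begin in every library, while the members go up and down, with the highest value, weighted by length, in part 8 in 4 libraries.

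Of 407 differential regions in the authors' deposited table, 2 lay at the members, 1 lower and 1 higher in the transgenic mice. Of 21887 protein-coding genes 0.763% had any such region within 1000 bp. One lay over the far end of Tekt1 and was lower in the transgenic mice. In the authors' deposited table it covered 72344653 to 72345044 of chromosome 11, with a log2 concentration of 1.27 in transgenic and 3.73 in wild type, a difference of -2.46 at an FDR of 0.0403. A peak lay there in transgenic replicate 2 (score 50.6) and in wild-type replicates 1 (87.4) and 2 (50.8), and none in the other 3 lists, so peak calls alone did not separate the groups. The lncRNA gene Gm51867 lies within 1000 bp of it. A neighbouring Tekt1 peak, at the same end and outside the region, was in 5 of 6 lists and in every transgenic one.

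The other region lay inside Dnah6, an inner arm heavy chain gene, and was higher in the transgenic mice. In the authors' deposited table it covered 73105519 to 73107481 of chromosome 6, with log2 concentrations of 7.24 and 6.82, a difference of 0.42 (1.34-fold) at an FDR of 0.0827. All 6 lists had a peak there, with scores of 1170, 861 and 476 in transgenic replicates 1, 2 and 3 and 282, 646 and 64.8 in wild-type replicates 1, 2 and 3. It lay at 56.6% of the way from the start edge to the far end. In the authors' annotation neither region overlapped a CpG island, with nearest islands 16826 and 141231 bp away. Of all 21887 protein-coding genes, 0.256% had a lower and 0.507% a higher region of the authors' deposited table within 1000 bp, against 1 of 34 members (2.94%) in each direction. Counts of 1 show nothing particular to the list, and long genes have more room for a region.

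**Figure D5:**
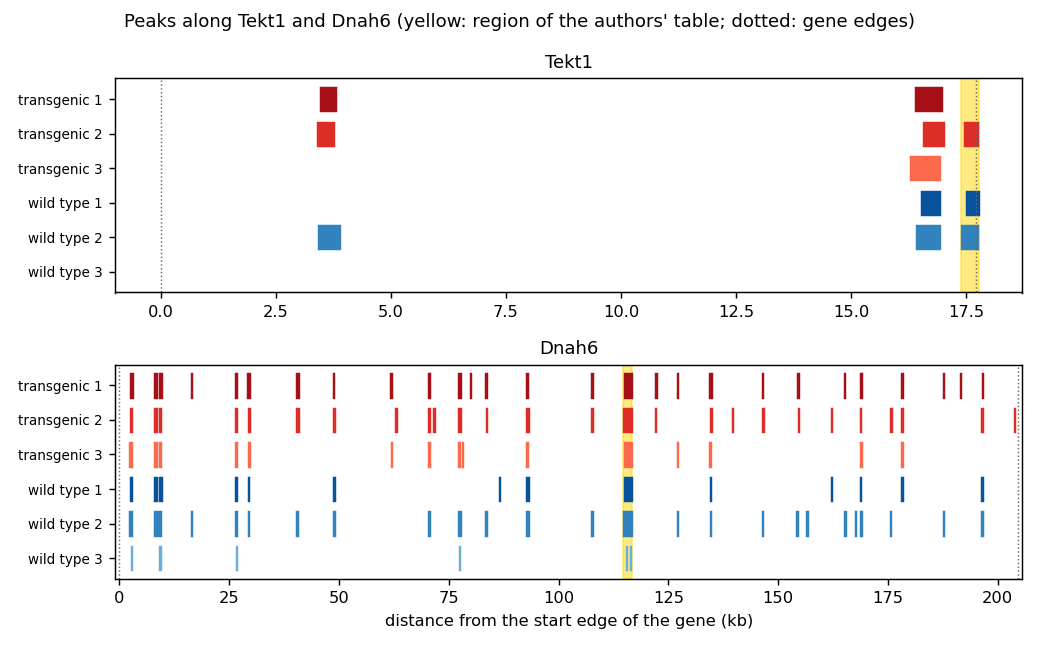
Peaks (bars) along Tekt1 and Dnah6 in each library (rows), against distance in kb from the start edge; yellow marks the region of the authors' deposited table. The Tekt1 region at the far end holds a peak in 3 of 6 libraries, and the Dnah6 region in the middle of the gene holds one in all 6.

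Merging the 6 lists gave 476 regions at the members. A peak in all 6 lists was found at 30 of these (6.30%), against 8.15% of 86729 regions at other protein-coding genes, and a peak in 1 list at 129 (27.1%), against 29.4%. The regions called in every list and with the highest lowest score lay in Dnah8 (lowest score 131), Dnah6 (99.4) and Dnah12 (94.7). The Dnah12 region, of 1422 bp, had scores of 911, 768 and 413 in the transgenic and 245, 667 and 94.7 in the wild-type lists. A region with a peak in all 3 transgenic and no wild-type list was found 9 times, in 7 members (20.6%), against 6.93% of protein-coding genes. As a share of regions this was 1.89% at members and 1.99% at other genes, so it was near the background. The opposite pattern was found at 0 members, against 0.0640% of protein-coding genes. Of the 9 regions, 2 were in Dnah17, 2 in Hydin and 1 each in Dnah3, Dnah11, Dnah12, Drc1 and Ak7. Their lowest scores ran from 52.2 (Dnah11) to 80.9 (Dnah12), all under the pooled median score of 96.3. At far ends lay 2 of them. The one at Hydin, from 110610189 to 110610483 on chromosome 8, had scores of 103, 84.8 and 60.4, and the one at Dnah11, from 117877200 to 117877643 on chromosome 12, had 66.0, 106 and 52.2. The Dnah11 region is within 1000 bp of Cdca7l. With lists of equal length there were 4 transgenic and 1 wild-type regions. The 4 were 2.65% of the members' regions, against 1.15% at other genes, and lay in 4 members, against 1.44% of protein-coding genes. A wild-type region was found in 0.343% of protein-coding genes at that list length. The count of 9 became 75 with wild-type replicate 2 left out (17.05% of the members' regions, against 13.7% at other genes), in 21 members (61.8%, against 30.0% of genes). With transgenic replicate 3 left out it was 24 (5.15% against 7.02%), in 15 members (44.1%, against 18.3% of genes).

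For further cilia genes 112 names were listed, with Trp73 and Tp73 for the same gene. They matched 87 genes, and 80 of these had a peak in some list. In 1 gene the transgenic libraries all lay above the wild-type ones, and in 0 genes the reverse. Among protein-coding genes with a peak in any list these shares were 6.78% and 0.0186%. A region specific to the transgenic lists was found in 6 (6.90%, against 6.93% of protein-coding genes). One specific to the wild-type lists was found in 1, against 0.064% of protein-coding genes. Of the 87, 2 had a region in the authors' deposited table, where 0.763% of protein-coding genes have one, and both were lower in the transgenic mice. Dnah7b, an inner arm heavy chain gene, had one inside the gene at 46075873 to 46076256 of chromosome 1 which the authors' deposited table gives as -2.10 on the log2 scale (FDR 0.00957). Its peaks were in transgenic replicate 2 (score 62.8) and wild-type replicates 2 (247) and 3 (92.9), and its reads may be shared with Dnah7a. Rfx1, an RFX factor, had one inside the gene on chromosome 8 which the authors' deposited table gives as -1.26 on the log2 scale (FDR 0.0673), with peaks in 2 transgenic and 2 wild-type lists.

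By role, the further lists were not alike. Relative to other protein-coding genes, the covered share was a log2 0.62 ± 0.20 higher at 12 other dynein assembly factors and 0.34 ± 0.11 higher at 18 other regulators of multiciliogenesis. The log2 ratio was -0.18 ± 0.07 at 16 other microtubule inner protein genes (SD, n = 6 libraries each; exact sign-flip permutation p = 0.031, adjusted p = 0.0729 over 7 lists, for all 3). Dynein arm and docking genes other than the members were at -0.18 ± 0.14 (n = 13 genes, exact p = 0.0625). Radial spoke, nexin link and central pair genes other than the members were at 0.07 ± 0.09 (n = 29 genes, exact p = 0.125). None passed after adjustment. Set against the 5 lists themselves, the members' covered share was higher by 0.328 to 1.14 percentage points for all but the assembly factors (exact sign-flip permutation p = 0.031, adjusted p = 0.044 each). In single libraries the difference fell to 0.00797 points against the regulators and 0.0365 against the radial spoke list. It fell to 0.0752 points against the dynein arm list and 0.107 against the inner protein list. Against the assembly factors the mean difference was -0.0927 points (exact sign-flip permutation p = 0.5625). Against 10 airway secretory and basal cell markers, neighbours of ciliated cells in the airway, the members' covered share was 0.642 ± 0.414 percentage points higher (SD, n = 6) and higher in 6 of 6 libraries (exact sign-flip permutation p = 0.031, adjusted p = 0.044). Against 10 alveolar type 2 markers, the cells in which the transgene is driven, it was 0.576 ± 0.577 points higher (exact p = 0.0625, adjusted p = 0.0729). The share of genes with a peak at an end did not pass in either comparison (exact p = 0.125 and p = 0.3125). Against the inner protein list, the members' share with an end peak was lower in 6 of 6 libraries. The mean difference was -11.6 points (-18.75 to -4.78, exact sign-flip permutation p = 0.031, adjusted p = 0.146). Against the other further cilia lists the mean was positive, up to 20.5 points at the regulators, and none passed after adjustment. A higher share of end peaks than in other genes was thus not shown to be particular to the members. These contrasts in covered share are given only for all members and the full peak lists. Their sign-flip tests, with 0.031 as the smallest p possible, ask only whether animals show the same direction at these genes. They do not measure the spread between genes. Without the dynein heavy chains and Hydin, the members' share in wild-type replicate 3 was 0.241%. That was below the airway markers (0.251%) and each of the 5 further cilia lists (0.254% to 0.481%). In each other library the members without these long genes stayed above the airway markers.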

How the data were processed

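Reads were aligned with Bowtie to mm10, and DiffBind and edgeR were used by the submitters, per the submitters' processing notes, without versions. Each library has its own list, whose peaks carry MACS names; the caller's settings are not given here. The deposited peak score is the authors' value and is not scaled between libraries. The deposited table of differential regions gives log2 concentrations and folds, with the authors' p-value and FDR, per the file headers. Its starts are printed as given, and other starts are 1-based.

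Covered bp and peaks were counted over RefSeq spans with Python 3.11.15, numpy 2.4.6 and pandas 2.3.3, and the counting was tested on simulated data. Groups followed the sample titles, since the genotype of transgenic replicate 2 is spelled differently. Alternatives were lists of equal length (the 30640 best-scoring peaks of each), peaks scoring 96.3 or more, other windows (500 and 2000 bp) and overlap rules, other gene sets and leaving out each library. The members and lists were chosen with earlier results of these data known. Genes given with a value in every library were the 6 most covered, those with a differential or group-specific region and the 4 regulators, with others added after their values were seen.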

Additional observations from a re-analysis of the deposited data

How the results depend on the processing

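With 3 animals per group the exact permutation test of transgenic against wild type used here cannot go below 0.10, so its alternatives speak only to direction. With lists of equal length several results reversed. The difference in members with a peak became -1, ends minus body -0.457 points, that difference minus the one of other genes -0.609, and the group difference of the log2 ratio to other genes -0.0625. Ends minus body also reversed with windows of 500 bp (-0.703) and as a mean over genes (-0.498), and its contrast with other genes with windows of 500 bp (-1.03) and 2000 bp (-0.125) and with peaks of at least median score (-0.108). The log2 ratio of members to other genes lost the 0.05 level with equal lists (0.19), peaks above the median score (0.20), a mean over genes (0.32) and without dynein heavy chains and Hydin (0.44), and was 0.33 against other genes within the members' length range, at the same p. Start minus far end fell to -0.620 with equal lists and was -2.72 with peaks above the median score. It passed with windows of 2000 bp (-4.06), and its contrast with other genes passed with 500 bp (-3.31) and 2000 bp (-2.37). Differential regions fell from 2 to 1 at an FDR of 0.05, at an absolute log2 fold of 1, and without the long genes. The share of all protein-coding genes with such a region is not given for the FDR and fold settings. Transgenic-specific regions were 4 with equal lists, where 1.44% of protein-coding genes had one. Without the long genes there were 2, and 6.93% of all protein-coding genes had one with the full lists. Wild-type-specific regions were 1 with equal lists, where 0.343% of protein-coding genes had one. Members whose groups did not overlap were 3 with equal lists, against 7.66% and 0.725% of genes in the 2 directions. With peaks above the median score there was 1 such member, and the share over all genes is not given for that setting. The causes of these changes were not tested.

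Leaving out 1 library gave 0.777 to 2.65 points for the covered share, -0.50 to 5.50 for members with a peak and 3.17 to 9.67 for members with an end peak. It gave 0.353 to 0.711 for ends minus body, 0.0549 to 0.322 for its contrast with other genes, 0.47 to 0.54 for the log2 ratio and 0.04 to 0.22 for its group difference. The ranges were -6.20 to -4.46 for start minus far end and -4.61 to -3.18 for its contrast. Counts ran from 9 to 75 transgenic-specific regions, 0 to 1 wild-type-specific regions and 0 to 23 members without overlap. With 5 libraries the sign-flip test cannot go below 0.0625.

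With the replicate number as a block the differences were 1.58 points, 3.00 members, 6.33 members with an end peak and 0.11 in the log2 ratio, with exact p of 0.50, 0.75, 0.25 and 0.50, so no call changed. Deviations of same-numbered libraries from their group means correlated at -0.0339, 0.0860 and 0.0877 over 16125 genes, and not every library correlated best with its own number, so the numbers were not taken to pair animals.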
